A study of Homo sapiens with 28 samples.

Results

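TXNIP, ARRDC4, ARRDC3, MLXIP and MLX are 5 of the 22357 genes with a named probe set on the arrays of this study, and all 5 were among the 9285 genes bright enough to be tested. MLXIP encodes MondoA and MLX its dimerisation partner, and TXNIP, ARRDC4 and ARRDC3 belong to the alpha-arrestin family. The genes were named with earlier results of these arrays known, and each was represented by the probe set selected on its mean log2 intensity over all arrays. That value decided nothing here, because each gene had a single probe set of its own. Since the genes were picked with results in view, the p-values below describe their changes and are no independent evidence that this set of genes stands out.

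The study followed the dose dependence of the transcriptional response to BAY 1238097, an inhibitor of the bromodomain and extra-terminal (BET) proteins, in CHL-1, an established human melanoma cell line described as sensitive to the compound. Cells seeded a day earlier in serum-containing DMEM received the vehicle DMSO or BAY 1238097 at 75 nM or 468 nM, and total RNA was hybridised to Affymetrix arrays. At 24 h there were 4 arrays of DMSO cells, 5 of cells given 75 nM and 5 of cells given 468 nM, and the same numbers were run at 4 h, which makes 28 arrays in 6 groups. Separate cultures are not mentioned in the labels, and the p-values therefore measure only the spread between these arrays, which may be technical.

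MondoA and MLX form a basic helix-loop-helix transcription factor that responds to glucose-6-phosphate: sugar phosphate drives the pair into the nucleus, where it binds paired E-box-like words known as carbohydrate response elements. TXNIP and ARRDC4 are its best described target genes. Their proteins hold back glucose uptake, TXNIP by promoting the internalisation of glucose transporters, and TXNIP also binds thioredoxin and blocks its reducing activity. ARRDC3 is a relative that acts as an adaptor between membrane receptors and HECT-type ubiquitin ligases.

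The promoters of TXNIP and ARRDC4 are shown because these were the genes that moved most. Each run is the 250 bases before a RefSeq transcription start in GRCh38.p14, read 5′ to 3′ on the gene's own strand, with the motif found in capitals. The TXNIP window is chr1:145996580-145996829 on the minus strand and the ARRDC4 window is chr15:97960453-97960702 on the plus strand.
TXNIP: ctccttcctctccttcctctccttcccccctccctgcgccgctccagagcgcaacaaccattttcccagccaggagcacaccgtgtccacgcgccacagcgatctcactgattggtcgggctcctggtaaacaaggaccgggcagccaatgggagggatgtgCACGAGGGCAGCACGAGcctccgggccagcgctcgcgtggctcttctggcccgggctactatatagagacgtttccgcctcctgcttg
ARRDC4: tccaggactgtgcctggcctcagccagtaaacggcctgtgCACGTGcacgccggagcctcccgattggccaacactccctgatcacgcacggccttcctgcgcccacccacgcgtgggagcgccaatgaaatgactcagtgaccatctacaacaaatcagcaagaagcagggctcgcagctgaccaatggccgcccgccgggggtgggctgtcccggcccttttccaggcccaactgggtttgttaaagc

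In TXNIP the capitals mark a pair of E-box-like words (CACGNN or NNCGTG) with exactly 5 bases between them, beginning 88 bases before the start. In ARRDC4 they mark a single E-box, CACGTG, beginning 210 bases before the start. All 5 genes had an entry, with 7 starts in all. MLX, at chr17:42566850-42567099 on the plus strand, held a CACGTG 50 bases before its start, and MLXIP, at chr12:122078506-122078755 on the plus strand, held a spaced pair 181 bases before its start. The second TXNIP start and both ARRDC3 starts had neither word within this window. Both words were searched on both strands and can overlap each other. Of 35116 RefSeq windows of the same length, 6.34% held CACGTG and 0.85% held the spaced pair. A match is a description of the letters and not a measured binding site, and no binding data were analysed here.

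TXNIP rose at 468 nM at both times, by 6.82-fold at 24 h and 2.05-fold at 4 h over DMSO. Its log2 intensities at 24 h were 8.10, 7.95, 8.18 and 7.79 in DMSO cells, 8.42, 8.57, 8.87, 8.64 and 8.88 at 75 nM, and 10.48, 10.98, 11.00, 10.76 and 10.66 at 468 nM. The 3 dose groups did not overlap at 24 h, and the step between the doses was wider than the step between DMSO and 75 nM. Of tested genes, 13% lay wholly above DMSO at 468 nM, 2.9% wholly above DMSO at 75 nM, and 8.01% higher at 468 nM than every 75 nM array. The share with all of these separations together was not counted. At 4 h the values were 8.50, 7.76, 8.65 and 7.89 in DMSO cells, 8.42, 9.12, 8.37, 8.92 and 8.43 at 75 nM, and 9.04, 9.30, 9.30, 9.46 and 9.05 at 468 nM. Here the 468 nM arrays all lay above the DMSO arrays, which held for 5.26% of tested genes, while the 75 nM arrays overlapped both.

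In the limma fit across all tested genes, the log2 change of TXNIP at 468 nM was 2.77 ± 0.18 (SE) at 24 h, with a 95% interval of 2.41 to 3.13 and an adjusted p of 1.14e-11. This was the second largest increase among the tested genes. At 4 h the change was 1.03 ± 0.18, with an adjusted p of 0.000182. The effect of 468 nM was larger at 24 h than at 4 h by 1.74 ± 0.25 on the log2 scale, tested as an interaction with an adjusted p of 2.17e-05, and this signed difference (24 h minus 4 h) was called positive in 10.8% of tested genes, which include genes that fell less at 24 h. At 75 nM the change was 0.67 ± 0.18 at 24 h, which missed the threshold of 0.05 after adjustment (adjusted p = 0.0606, unadjusted p = 0.000771), although the groups did not overlap. Such separation above DMSO was seen in 2.9% of tested genes in this comparison. Within the 4 sets of array title codes that held a DMSO array, the change was positive in 4 of 4, between 0.46 and 1.09. Deviations within a set correlated at 0.058 to 0.252 between these groups, above 0.1 in 3 of 4 pairs. The call depended on the setting. It passed with the set as a replicate block (0.73 ± 0.15, adjusted p = 0.00978) and with a variance trend (adjusted p = 0.0403), among other alternatives. At 4 h the 75 nM change was 0.45 ± 0.18, with an adjusted p of 0.391. With the block it was 0.52 ± 0.15 and did not pass either (adjusted p = 0.12). Within the sets it was positive in 4 of 4, between 0.27 and 0.62.

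**Figure D1:**
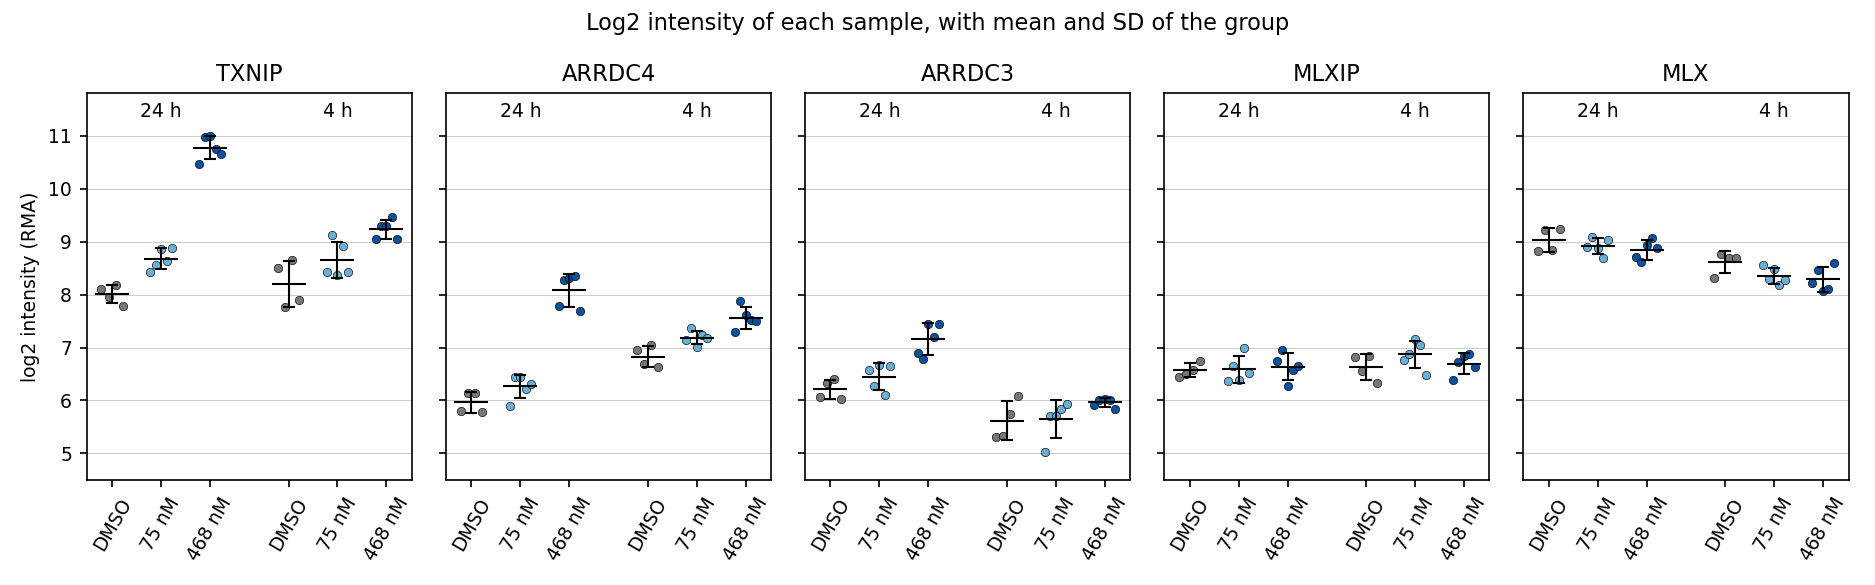
Log2 intensity (RMA, deposited) of each of the 5 genes on every array, with dose on the horizontal axis, 24 h on the left and 4 h on the right; points are arrays and bars are group means with the SD. TXNIP and ARRDC4 at 468 nM and 24 h lie above all DMSO and 75 nM arrays of that time, whereas the MLXIP and MLX groups overlap at 24 h. At that dose and time, 13% of tested genes lay wholly above DMSO and 8.01% wholly above 75 nM.

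ARRDC4 followed TXNIP at 468 nM, with a rise of 4.32-fold at 24 h and 1.66-fold at 4 h. At 24 h its log2 intensities were 5.81, 6.14, 6.14 and 5.79 in DMSO cells, 5.90, 6.45, 6.44, 6.22 and 6.32 at 75 nM, and 7.79, 8.28, 8.31, 8.34 and 7.70 at 468 nM. The 468 nM arrays stood well clear of both other groups, and the 75 nM arrays overlapped DMSO. At 468 nM and 24 h, 13% of tested genes lay wholly above DMSO and 8.01% wholly above 75 nM. At 4 h the values were 6.95, 6.69, 7.04 and 6.64 in DMSO cells, 7.14, 7.36, 7.02, 7.25 and 7.18 at 75 nM, and 7.30, 7.87, 7.61, 7.53 and 7.50 at 468 nM. The 468 nM arrays lay above all DMSO arrays at 4 h, as in 5.26% of tested genes, and their lowest array overlapped the 75 nM group.

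The log2 change of ARRDC4 at 468 nM was 2.11 ± 0.15 at 24 h (95% interval 1.81 to 2.41, adjusted p = 4.81e-11), the sixth largest increase among the tested genes. It was 0.73 ± 0.15 at 4 h (adjusted p = 0.000978). The effect was larger at 24 h by 1.38 ± 0.21 (adjusted p = 3.19e-05). None of the 5 genes had a called negative difference of this kind, which 12.7% of tested genes had. At 75 nM neither time passed the threshold: the change was 0.30 ± 0.15 at 24 h (adjusted p = 0.321) and 0.36 ± 0.15 at 4 h (adjusted p = 0.427). With the set of title codes as a block, the 4 h change was 0.42 ± 0.12 and did not pass either (adjusted p = 0.11). Within the sets the 4 h change was positive in 4 of 4, between 0.21 and 0.54. Whether TXNIP and ARRDC4 differed in the size of their response was not tested.

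ARRDC4 also moved in the vehicle cells. It fell to 5.97 ± 0.20 in DMSO cells at 24 h, against 6.83 ± 0.19 in DMSO cells at 4 h (SD, n = 4 each), with no overlap between the groups, a separation downwards that 6.65% of tested genes had. The log2 change was -0.86 ± 0.15 (95% interval -1.17 to -0.54, adjusted p = 0.00192). Of the tested genes, 2.61% fell in this comparison and 2.63% rose. The rise of ARRDC4 at 24 h is therefore measured from a lower DMSO level than the rise at 4 h. TXNIP in DMSO cells was 8.01 ± 0.17 at 24 h and 8.20 ± 0.44 at 4 h, a log2 difference of -0.19 ± 0.19 with an adjusted p of 0.557. Time in culture and the 2 harvests cannot be told apart in this comparison.

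ARRDC3 rose 1.93-fold at 468 nM and 24 h and did not pass the test at 4 h. Its log2 intensities at 24 h were 6.07, 6.33, 6.40 and 6.03 in DMSO cells, 6.57, 6.27, 6.67, 6.10 and 6.65 at 75 nM, and 6.90, 6.79, 7.44, 7.21 and 7.45 at 468 nM. The 468 nM arrays were above every DMSO and 75 nM array, and the 75 nM arrays overlapped DMSO. Of tested genes, 13% lay wholly above DMSO at 468 nM and 24 h, and 8.01% lay wholly above 75 nM. At 4 h the values were 5.31, 5.34, 5.74 and 6.08 in DMSO cells, 5.03, 5.71, 5.71, 5.84 and 5.93 at 75 nM, and 5.92, 6.01, 6.03, 6.01 and 5.84 at 468 nM. All 3 groups overlapped at 4 h, and the 468 nM arrays were the most tightly grouped.

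The log2 change of ARRDC3 at 468 nM was 0.95 ± 0.18 at 24 h (95% interval 0.58 to 1.32, adjusted p = 0.000111) and 0.34 ± 0.18 at 4 h (adjusted p = 0.264). The difference between these effects was 0.60 ± 0.25 and missed the threshold (adjusted p = 0.0849), so a dependence on time was not shown for ARRDC3. In DMSO cells it averaged 6.21 ± 0.19 at 24 h and 5.62 ± 0.37 at 4 h (SD, n = 4 each), a log2 difference of 0.59 ± 0.19 (adjusted p = 0.063).

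MLXIP and MLX, the genes of the factor itself, did not pass the test in any of the 9 comparisons. These include the difference between the times in the effect of 75 nM, which none of the 5 genes passed and 0.0323% of tested genes did. MLXIP in DMSO cells ranged between 6.44 and 6.75 at 24 h, with 6.37 to 6.99 at 75 nM and 6.27 to 6.95 at 468 nM. At 4 h it ranged between 6.32 and 6.85 in DMSO cells, with 6.49 to 7.16 at 75 nM and 6.38 to 6.88 at 468 nM. Its 6 group means spanned 0.30 on the log2 scale, less than in most tested genes (14.2% had a smaller span). The change at 468 nM was 0.07 ± 0.15 at 24 h, with a 95% interval of -0.24 to 0.38, and 0.06 ± 0.15 at 4 h, with an interval of -0.26 to 0.37. The adjusted p-values were 0.735 at 24 h and 0.883 at 4 h.

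The MLX group means were lower at the higher doses at both times, and no dose comparison passed the threshold. At 24 h it averaged 9.03 ± 0.22 in DMSO cells, 8.92 ± 0.15 at 75 nM and 8.84 ± 0.18 at 468 nM, and at 4 h 8.62 ± 0.20 in DMSO cells, 8.36 ± 0.15 at 75 nM and 8.29 ± 0.24 at 468 nM (SD, n = 4 for DMSO and 5 for each dose). The ranges of the dose groups overlapped at each time. The log2 change at 468 nM was -0.19 ± 0.13 at 24 h (95% interval -0.46 to 0.08, adjusted p = 0.24) and -0.33 ± 0.13 at 4 h (95% interval -0.60 to -0.06, adjusted p = 0.119). When every array was shifted to level 9 reference genes, the 4 h change became -0.45 and passed (adjusted p = 0.0248). In DMSO cells MLX was higher at 24 h than at 4 h by 0.41 ± 0.14 with no overlap (upwards in 6.49% of tested genes), and the adjusted p was 0.0732. The intervals leave room for changes in MLXIP and MLX mRNA of these sizes, and neither the proteins nor their place in the cell was measured.

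**Figure D2:**
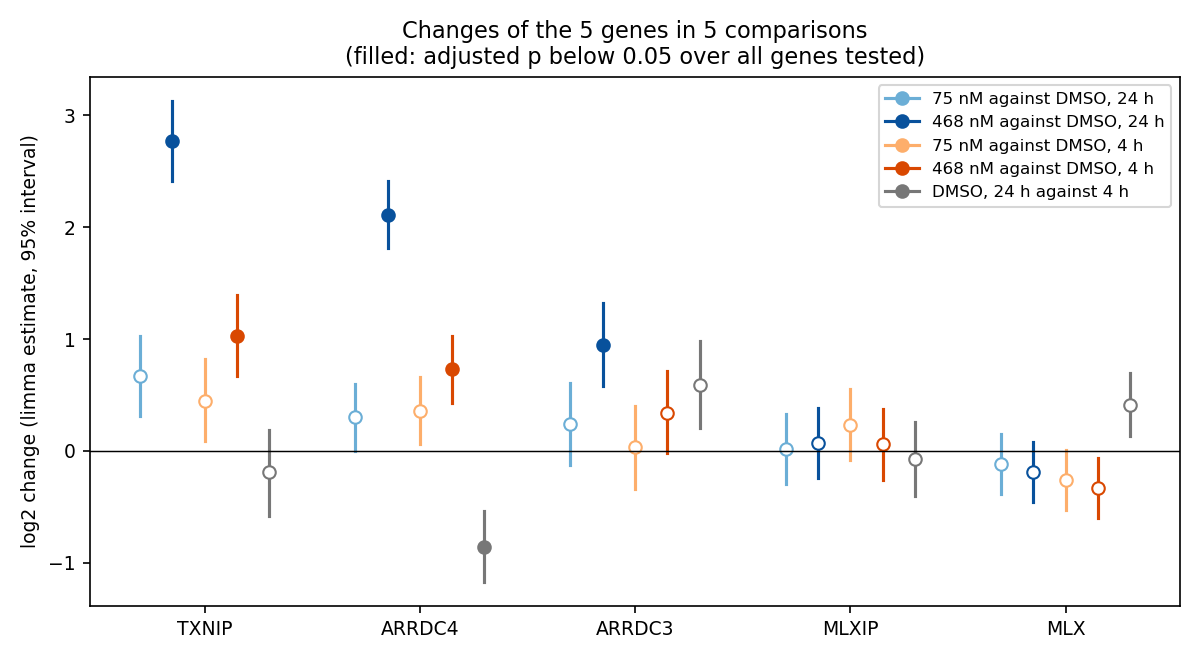
Log2 change of each of the 5 genes in the 4 comparisons with DMSO and between the DMSO times, from the limma fit over all 28 arrays, with 95% intervals; filled points passed the adjusted p of 0.05, and the horizontal line is no change. At 468 nM and 24 h the intervals of TXNIP (2.41 to 3.13), ARRDC4 (1.81 to 2.41) and ARRDC3 (0.58 to 1.32) lie above 0, and those of MLXIP and MLX include 0.

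Set against DMSO, 3 of the 5 genes rose at 468 nM and 24 h, beside 20.4% of all tested genes (25.1% fell, and 45.6% changed in either direction). At 468 nM and 4 h, 2 of the 5 rose, beside 3.96% of all tested genes (6.95% fell). At 75 nM none of the 5 passed the limma test at either time in the fit without a block, and the share of tested genes that changed was 0.872% at 24 h and 0.679% at 4 h. At an unadjusted p below 0.05, TXNIP alone passed at 24 h, and TXNIP and ARRDC4 passed at 4 h. The share of all tested genes at that unadjusted threshold was not counted, so nothing is read from these passes. The median log2 change of the 5 genes was 0.95 at 468 nM and 24 h, with -0.019 over all tested genes, and 0.34 at 468 nM and 4 h, with -0.027 over all tested genes. The comparisons at one time share their DMSO arrays, and the genes were chosen with these results known, so nothing is read from these shares.

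**Figure D3:**
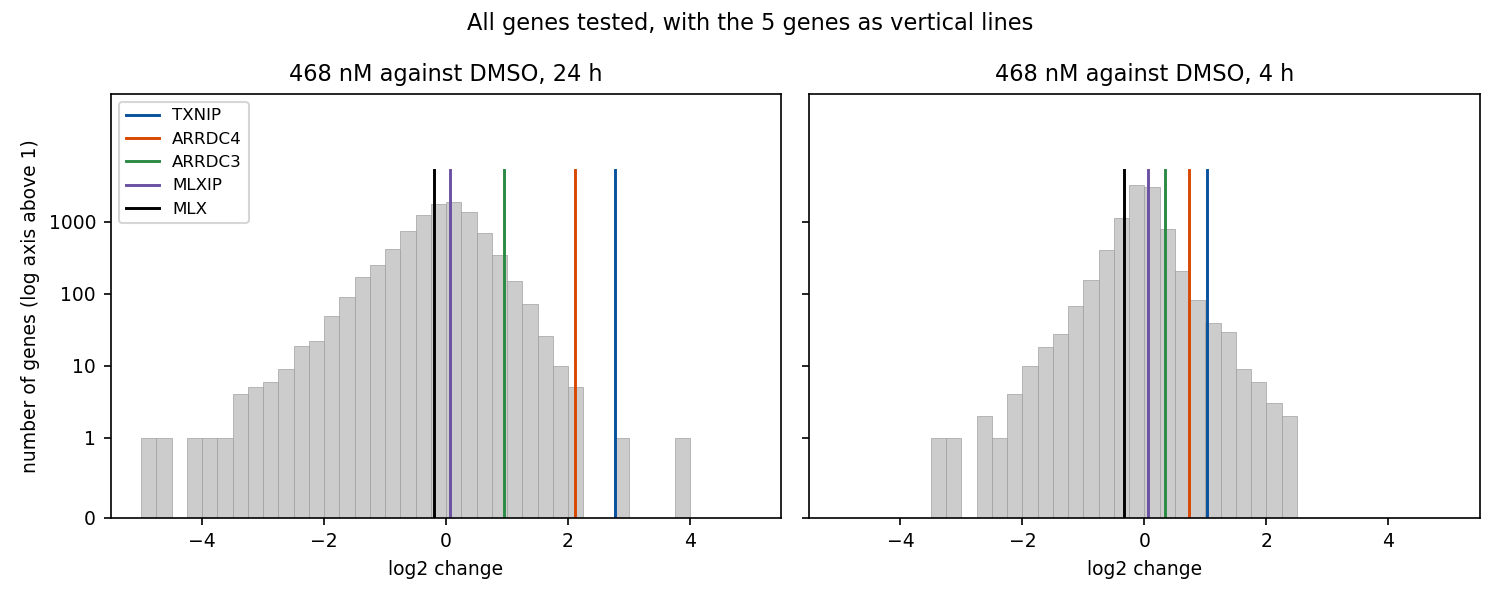
Number of tested genes (log axis, linear below 1) by log2 change at 468 nM against DMSO, with 24 h on the left and 4 h on the right, over all 9285 tested genes, and vertical lines at the 5 genes. At 24 h TXNIP (2.77) and ARRDC4 (2.11) lie in the thin upper tail, ARRDC3 (0.95) on the upper slope, and MLXIP (0.07) and MLX (-0.19) in the bulk. At 4 h TXNIP (1.03) lies nearer 0 but still in the upper tail, with rank 83 from the highest among the 9285 tested genes.

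The doses were also compared directly. At 24 h, cells given 468 nM had more TXNIP than cells given 75 nM by 2.10 ± 0.17 on the log2 scale (adjusted p = 1.38e-09), more ARRDC4 by 1.82 ± 0.14 (adjusted p = 6.76e-10) and more ARRDC3 by 0.71 ± 0.17 (adjusted p = 0.00231). These 3 increases stood beside 13.4% of tested genes that were higher at 468 nM, and 8.01% lay wholly above 75 nM. MLXIP differed by 0.05 ± 0.14 (adjusted p = 0.808) and MLX by -0.07 ± 0.12 (adjusted p = 0.685). At 4 h none of the 5 passed in the fit without a block, where 2.56% of tested genes differed: the TXNIP difference was 0.58 ± 0.17 (adjusted p = 0.0641) and the ARRDC4 difference 0.37 ± 0.14 (adjusted p = 0.209). The array titles carry running codes that fall into 5 sets, and with the set as a replicate block the TXNIP difference at 4 h was 0.58 ± 0.14 and passed (adjusted p = 0.0176). Within the 5 sets, TXNIP was higher at 468 nM in 5 of 5, by 0.18 to 0.92.

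The same sets gave the direction of each called increase over DMSO. Among the 4 sets with a DMSO array, the TXNIP change at 468 nM was positive in 4 of 4 at 24 h, between 2.58 and 3.05, and in 4 of 4 at 4 h, between 0.80 and 1.54. ARRDC4 ranged between 1.91 and 2.47 at 24 h and between 0.49 and 0.92 at 4 h, also positive in 4 of 4. ARRDC3 at 24 h ranged between 0.71 and 1.42.

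Over the 6 groups, the genes took different orders. TXNIP was lowest in DMSO at 24 h (8.01), followed by DMSO at 4 h (8.20), 75 nM at 4 h (8.65), 75 nM at 24 h (8.68), 468 nM at 4 h (9.23) and 468 nM at 24 h (10.78). Neighbours in this order overlapped up to the 75 nM groups, while each 468 nM group lay clear of the group before it. ARRDC4 was lowest in DMSO at 24 h (5.97), followed by 75 nM at 24 h (6.27), DMSO at 4 h (6.83), 75 nM at 4 h (7.19), 468 nM at 4 h (7.56) and 468 nM at 24 h (8.08). Of its neighbours, 75 nM at 24 h and DMSO at 4 h alone did not overlap. ARRDC3 went by time before dose, with the 3 groups of 4 h (5.62 in DMSO, 5.64 at 75 nM and 5.96 at 468 nM) below the 3 groups of 24 h (6.21 in DMSO, 6.45 at 75 nM and 7.16 at 468 nM). Its neighbours overlapped or met except that 468 nM at 24 h stood above 75 nM at 24 h. For MLX the 3 groups of 4 h were likewise below those of 24 h, and all neighbours overlapped, as they did for MLXIP.

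The spans of the group means, which the comparisons above share, were 2.77 for TXNIP, 2.11 for ARRDC4, 1.54 for ARRDC3 and 0.74 for MLX on the log2 scale. The genes nearest to TXNIP, by the mean absolute log2 difference over the 6 centred group means, were H2BC20P (0.25), SESN3 (0.26), RSRP1 (0.28), PIK3R3 (0.30) and ZFYVE1 (0.31). SESN3, which encodes a stress-induced sestrin, changed by 2.17 at 468 nM and 24 h and by 1.63 at 468 nM and 4 h. The nearest to ARRDC4 were CRISPLD2 (0.20), ARHGDIG (0.21), SLIT2 (0.23), CEMIP2 (0.23) and ZSWIM6 (0.24). ARRDC4 itself was the 74th nearest gene to TXNIP, at a distance of 0.44, and TXNIP was the 191st nearest to ARRDC4. These distances describe 6 group means and carry no test.

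The other alpha-arrestins were followed as a family. Of its 6 genes, ARRDC2 and ARRDC5 were too dim to be tested, and the 4 tested rose at 468 nM and 24 h, with a median log2 change of 1.53, where 20.4% of all tested genes rose. TXNIP, ARRDC4 and ARRDC3 are 3 of these 4 and were chosen with these results known, so nothing is read from the count. The one not yet described, ARRDC1, which recruits ubiquitin ligases to vesicles budding from the plasma membrane, changed by 0.46 ± 0.18 (adjusted p = 0.0336), a call that was lost in 8 of 16 alternative settings. The settings were tried on the genes of these lists after seeing the data. At 4 h ARRDC1 did not pass (0.29, adjusted p = 0.359).

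Around MondoA and MLX, 7 of 13 genes of the Mondo, MLX and MAX network were tested, and 12 of the 13 had a probe set of their own. MLXIPL, the paralogue ChREBP, and MAX were among those not tested. At 468 nM and 24 h, 2 rose and 1 fell, with a median of 0.24, where 20.4% of all tested genes rose and 25.1% fell. MXD1, a MAX partner that represses MYC targets and also pairs with MLX, rose by 1.04 ± 0.19 (adjusted p = 7.59e-05), and MXI1, of the same MXD family, by 0.47 ± 0.18 (adjusted p = 0.0357). MYC fell by 0.54 (SE 0.13, adjusted p = 0.00185). At 468 nM and 4 h MXD1 changed by 1.48 ± 0.19 (adjusted p = 4.29e-06) and MYC by -1.07 ± 0.13 (adjusted p = 2.59e-06). The MXD1 call at 4 h was lost when its probe sets were averaged (0.90, adjusted p = 0.063), and the MXI1 call in 7 of 16 settings.

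Of 13 reported targets of MondoA or ChREBP, 10 were tested, 4 rose and 3 fell at 468 nM and 24 h, and the median was 0.05. Apart from TXNIP and ARRDC4, 2 of 8 rose and 3 of 8 fell, near the 20.4% and 25.1% of all tested genes, so the counts are no result about the list. HK2, the hexokinase that makes glucose-6-phosphate, changed by -1.37 ± 0.14 (adjusted p = 2.93e-08), LDHA, which turns pyruvate into lactate, by -0.79 ± 0.14 (adjusted p = 4.92e-05) and the fatty acid synthase gene FASN by -0.63 ± 0.14 (adjusted p = 0.000822). TKFC, a kinase that brings fructose-derived glyceraldehyde into glycolysis, rose by 0.66 ± 0.17 (adjusted p = 0.00295). These 4 calls held in every alternative setting in which the gene was tested. At 468 nM and 4 h TXNIP and ARRDC4 rose and none of the 8 others passed.

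**Figure D4:**
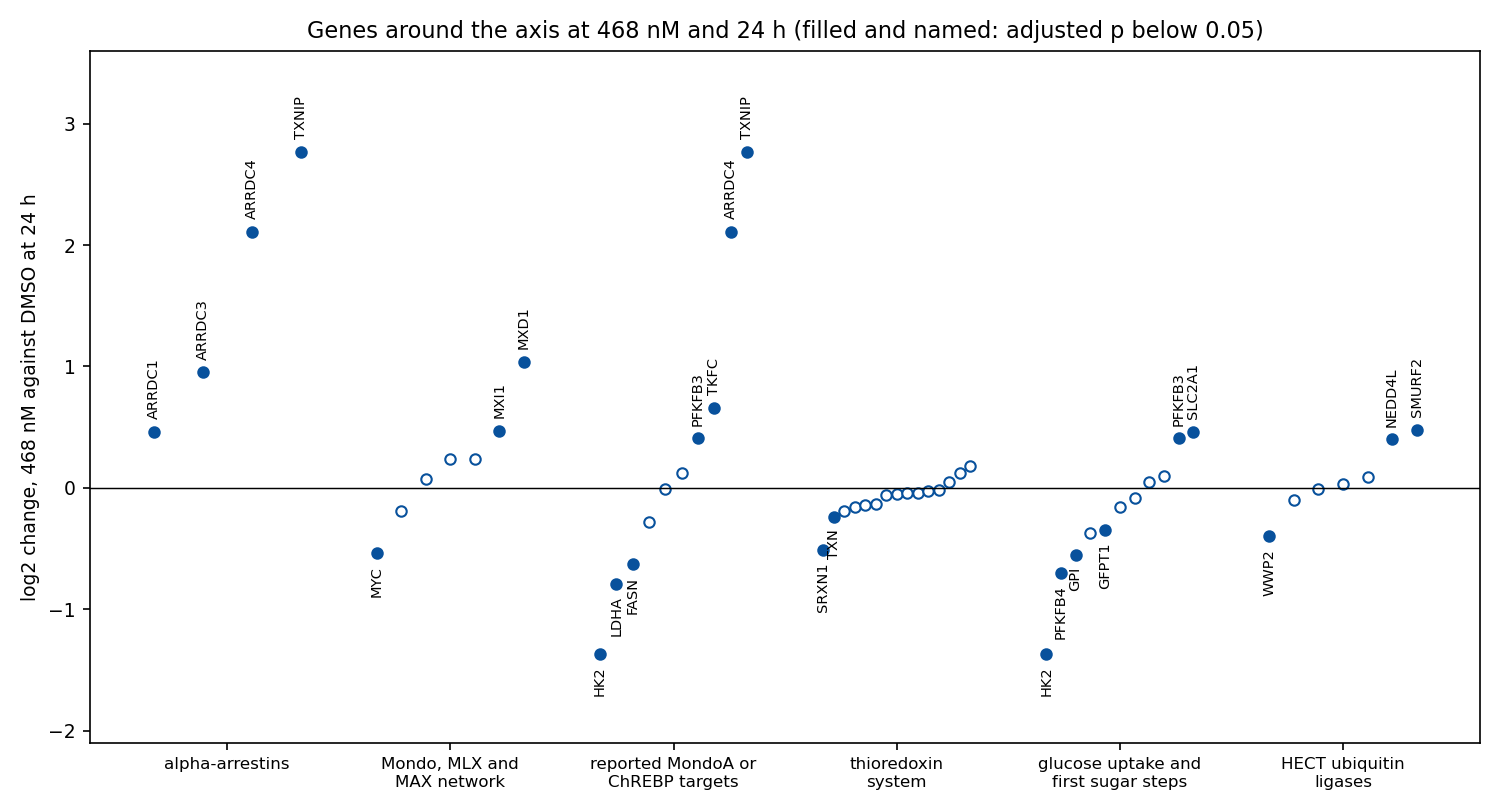
Log2 change at 468 nM against DMSO at 24 h for every tested gene of 6 lists around the axis; filled and named points passed the adjusted p of 0.05, open points did not, and genes held by more than one list appear in each. All 4 tested alpha-arrestins lie above 0, with TXNIP at 2.77, while reported target genes lie on both sides, with HK2 at -1.37.

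Of 18 genes of glucose uptake and entry into sugar phosphate metabolism, 11 were tested, 2 rose and 4 fell at 468 nM and 24 h, and the median was -0.16. These counts too lie near the shares of all tested genes (20.4% higher and 25.1% lower). Beside HK2, PFKFB4, which sets fructose-2,6-bisphosphate, changed by -0.70 ± 0.25 (adjusted p = 0.0233) and the phosphoglucose isomerase gene GPI by -0.55 ± 0.14 (adjusted p = 0.00183). SLC2A1, which encodes the glucose transporter GLUT1, rose by 0.46 ± 0.12 (adjusted p = 0.00271). PFKFB3 and GFPT1 complete the counts and were named after their values were seen: PFKFB3 changed by 0.41 ± 0.16 (adjusted p = 0.0438) and GFPT1 by -0.35 ± 0.12 (adjusted p = 0.018). The PFKFB4 call was lost in 3 of 16 settings, that of PFKFB3 in 8 of 16 and that of GFPT1 in 5 of 17, and glucose itself was not measured.

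Of the thioredoxin system, whose thioredoxin the TXNIP protein binds, 15 of 20 listed genes were tested, and none rose and 2 fell at 468 nM and 24 h, with a median of -0.05, where 20.4% of all tested genes rose and 25.1% fell. TXN, thioredoxin itself, changed by -0.24 ± 0.09 (adjusted p = 0.0238, lost in 6 of 17 settings), and SRXN1, which repairs oxidised peroxiredoxins, by -0.51 ± 0.14 (adjusted p = 0.00381). The SRXN1 value was -0.13 when its probe sets were averaged (adjusted p = 0.641). The thioredoxin reductase gene TXNRD1 differed by 0.05 ± 0.13 (adjusted p = 0.753).

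Of 7 tested HECT ubiquitin ligases of 9 listed, enzymes that bind alpha-arrestins through WW domains, 2 rose and 1 fell at 468 nM and 24 h, with a median of 0.03, near the 45.6% of all tested genes called in either direction. SMURF2 rose by 0.48 ± 0.09 (adjusted p = 0.00017) and NEDD4L by 0.40 ± 0.13 (adjusted p = 0.0129), and WWP2 changed by -0.40 ± 0.14 (adjusted p = 0.0213). The call was lost in 2 of 17 settings for NEDD4L and in 6 of 17 for WWP2. ITCH, a ligase that degrades TXNIP protein, differed by 0.03 ± 0.08 (adjusted p = 0.782).

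Over all these lists 45 genes other than the 5 were tested, of 70 listed. At 468 nM, 8 rose and 10 fell at 24 h, near the 20.4% and 25.1% of all tested genes. At 4 h 1 rose and 1 fell, where 3.96% of all tested genes rose and 6.95% fell. At 75 nM none of the 45 passed the limma test at either time, and at an unadjusted p below 0.05 there were 5 at 24 h and 4 at 4 h. Since all tested genes were not counted at that unadjusted threshold, nothing is read from the unadjusted counts.

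As a check of the series, HEXIM1, a gene commonly induced by BET inhibition, rose by 1.30 ± 0.13 at 24 h (adjusted p = 8.76e-09) and 1.67 ± 0.13 at 4 h (adjusted p = 5.2e-10) at 468 nM. HEXIM1 at 75 nM rose by 0.85 ± 0.13 at 4 h (adjusted p = 0.000628) and did not pass at 24 h (0.32 ± 0.13, adjusted p = 0.201). Arrays correlated with the others of their group at a mean r of 0.955 to 0.977, and the closest 2 arrays correlated at 0.9785, so none was deposited in duplicate. Of the 7 melanocyte markers on the arrays, SOX10 and S100B alone were above the filter, while MITF, PMEL, MLANA, TYR and TYRP1 were dim. The keratinocyte and endothelial markers on the arrays, 7 of each, were all below the filter, and 1 of 6 fibroblast and 1 of 7 leukocyte markers were above it. The values are relative to each array's overall distribution, so fewer cells or less RNA per cell cannot be seen in them, nor told apart.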

How the data were processed

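RNA of CHL-1 cells was measured on 28 Affymetrix arrays, and the series' value table was used. Its values are intensities that the authors deposited after RMA, per the submitters' processing notes; the genome build is not given here by any label or header. The linear intensities were log2 transformed. Array medians lay between 2.44 and 2.49 on that scale, and precision rests on how many arrays a group has. Of 53617 probe sets, 23871 named 1 gene, 1842 several and 27904 were not listed; those naming 1 gene gave 22357 genes, and for 663 genes with several probe sets the brightest was kept.

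Genes above a log2 of 5 on at least 4 arrays were tested with limma 3.58.1 (R 4.3.3): 6 group means, 28 arrays, 22 residual and 3.84 prior degrees of freedom, 9 comparisons, with Benjamini-Hochberg adjustment over all 9285 genes and a threshold of 0.05. The code of the fit was run on simulated data with independent normal errors. These lack the correlations within sets of title codes, so nothing is read from that run about these arrays. All 5 genes were named in every comparison; of every other list, up to 4 genes past the threshold with the largest change; and the 5 genes nearest in pattern to TXNIP and to ARRDC4. The genes and lists were chosen with earlier results of these data known.

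Title codes were split into 5 sets of 26 consecutive codes. The main fit held no block at either time, and the set as a block was one of the alternatives. At 4 h, same-set deviations correlated at 0.103 to 0.345 in every pair between the dose groups. At 24 h the pairs correlated at 0.015 to 0.305, some of them below 0.1. The labels do not say what the sets mark. Alternatives were repeated quantile normalization, a shift by reference genes, other filters, averaged probe sets, a variance trend, the block, the groups compared alone and leaving out each array. Promoter windows came from RefSeq (GRCh38.p14).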

Additional observations from a re-analysis of the deposited data

Results flagged for a closer look

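The effect of 468 nM differed between the times for TXNIP and ARRDC4, tested as an interaction in limma across all genes. For TXNIP the 24 h effect exceeded the 4 h effect by 1.74 in log2 units (adjusted p = 2.17e-05), and for ARRDC4 by 1.38 (adjusted p = 3.19e-05). The signed difference was called positive in 10.8% of tested genes, which include genes that fell less at 24 h. ARRDC4 in DMSO cells was itself lower at 24 h than at 4 h (log2 change -0.86, adjusted p = 0.00192). Its 468 nM means were 8.08 at 24 h and 7.56 at 4 h, with overlapping arrays. For TXNIP the DMSO change was -0.19 (adjusted p = 0.557), and the 468 nM means were 10.78 at 24 h and 9.23 at 4 h, without overlap.

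ARRDC3 in replicate 1 of the cells given 75 nM for 4 h was 5.03 on the log2 scale, far from the other 4 arrays of its group, the next of which was 5.71. Of 30 groups checked this was the one to stand apart, and chance alone marks about 1 in 20. Without this array the ARRDC3 change at 75 nM and 4 h was 0.18 (adjusted p = 0.916).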

How the results depend on the processing

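TXNIP and ARRDC4 kept their calls at 468 nM against DMSO at both times, at 468 nM against 75 nM at 24 h and in the interaction under every alternative, as did ARRDC4 between the DMSO times, and ARRDC3 in its calls at 24 h wherever it was tested; the filter at a log2 of 7 left 4986 genes and 3 of the 5. The number of the 5 genes called moved by more than 1.5 times in 3 comparisons, and the cause was not tested. At 75 nM against DMSO at 24 h the count of 0 became 1, TXNIP, with the filter at 7 (adjusted p = 0.0391, fewer genes tested). It was also 1 with a variance trend (0.0403), the groups compared alone (0.0494) and the replicate block (change 0.73, adjusted p = 0.00978, same-set deviations correlated at 0.058 to 0.252). At 468 nM against 75 nM at 4 h it became 1, TXNIP, with the filter at 7 (0.0404), the trend (0.0402) and the block (0.0176), and ranged between 0 and 1 with single arrays left out: without replicate 2 at 75 nM the TXNIP difference was 0.70 (adjusted p = 0.0219). Between the DMSO times the count of 1 became 3 with the shift by reference genes (ARRDC3 0.73, adjusted p = 0.0221, and MLX 0.55, adjusted p = 0.0171), 2 with the filter at 7 (MLX, adjusted p = 0.0445) and 2 with the block (ARRDC3, adjusted p = 0.0359), and ranged between 1 and 2 with arrays left out: without replicate 4 of DMSO at 4 h ARRDC3 was 0.75 (adjusted p = 0.0223). Without replicate 2 at 468 nM and 24 h the ARRDC3 interaction was 0.70 (adjusted p = 0.0476). The block changed no other call of the 5 genes.

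Of 842 values of the 5 genes under alternatives, 24 changed sign, none above 0.08 in size. With the shift by reference genes MLXIP was -0.07 at 468 nM and 4 h, -0.06 at 75 nM and 24 h and 0.07 between the DMSO times. With single arrays left out, MLXIP ranged between -0.01 and 0.16 at 468 nM and 24 h, -0.05 and 0.14 at 468 nM and 4 h, -0.08 and 0.08 at 75 nM and 24 h, -0.02 and 0.15 between the doses at 24 h, -0.17 and 0.00 between the DMSO times, and -0.07 and 0.12 in the interaction at 468 nM. ARRDC3 at 75 nM and 4 h ranged between -0.08 and 0.18, and the ARRDC4 interaction at 75 nM between -0.14 and 0.03. The shift moved the median of all genes by -0.126 at 468 nM and 4 h, -0.125 between the doses at 4 h, 0.108 in the interaction at 468 nM and 0.140 between the DMSO times. Over the alternatives, the count of all genes called went between 18 and 234 at 75 nM and 24 h (81 as reported), 28 and 82 at 75 nM and 4 h (63), 2772 and 4506 at 468 nM and 24 h (4231), 616 and 1218 at 468 nM and 4 h (1013), 123 and 286 between the doses at 4 h (238), 0 and 11 for the interaction at 75 nM (3) and 103 and 908 between the DMSO times (486).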

Other observations

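Among the genes around the axis, several differed between the times in their response to 468 nM, each tested as an interaction in limma across all genes. The HK2 effect at 24 h differed from that at 4 h by -1.23 ± 0.20 in log2 units (adjusted p = 9.73e-05), and the LDHA effect by -0.74 ± 0.20 (adjusted p = 0.00716). TKFC differed by 0.82 (adjusted p = 0.016) and NEDD4L, a ubiquitin ligase, by 0.61 (adjusted p = 0.0167), and both calls were lost without a filter on dim genes. SRXN1 differed by -0.78 ± 0.20 (adjusted p = 0.00509), a call that was lost when its probe sets were averaged. Of 45 such genes, 4 had a positive and 7 a negative signed difference (24 h minus 4 h), beside 10.8% and 12.7% of all tested genes.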
